A study of Mus musculus with 6 samples.

Results

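The regions described here are the 238 places in the mouse genome that were listed as methyl-CpG immunoprecipitation peaks in all 4 Plcg1-hairpin libraries of one cell line. The peaks of the 4 lists were merged wherever they overlapped by at least 1 bp, which gave 10085 merged regions, and those holding a peak of every list were kept. They made up 2.36% of the merged regions. The coordinates of the peaks thus chose them, so that being listed 4 times and overlapping are descriptions and not findings, and neither carries a test. Of the other merged regions, 7989 were in 1 list, 1554 in 2 lists and 304 in 3 lists.

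The cells were I/11, an erythroblast line from the liver of p53-deficient mouse fetuses (day E12.5). Lentivirus delivered a short hairpin RNA against Plcg1, number 133 or number 14, and infected cells were selected with 1 ug/ml puromycin for 48 h. For the 24 h libraries, the cells of each hairpin had spent 24 h in differentiation medium with 10 U/ml erythropoietin (Epo) and were taken 96 h after infection. For the 0 h libraries, they were taken 72 h after infection from expansion medium with 1 U/ml Epo, SCF and dexamethasone. The lists of hairpins 133 and 14 held 2960 and 2666 peaks at 24 h, and 3900 and 3437 peaks at 0 h. The kept regions were 8.04% and 8.93% of the 24 h lists and 6.10% and 6.93% of the 0 h lists. Each group is 1 library of 1 cell line, so nothing below has a replicate check, and libraries with a control hairpin were not analysed here. The lists give positions alone, so read depth is unknown. Coordinates are those of the mouse build mm10. The sources used here do not say in which direction a listed region differs from a control, if it does.

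The assay captures DNA with MBD2-Fc, the methyl-CpG binding domain of MBD2 fused to an antibody tail, and a high-salt elution keeps fragments that are both methylated and rich in CpG. In mammals most CpG are methylated, whereas the CpG-dense islands at gene starts are mostly free of methylation, and an island that gains methylation is usually that of a silent gene. Genes of embryonic patterning, such as the homeobox genes, carry long islands held by Polycomb in cells that do not use them. Plcg1 encodes phospholipase C gamma 1, a signalling enzyme of the Epo receptor pathway. Its gene body (chr2:160731310-160775760) held no region listed in all 4 libraries, and the nearest one lay 2167.7 kb away at L3mbtl1.

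RefSeq promoter sequence of the GRCm38.p6 build covers the 250 bases before protein-coding gene starts. The 7 regions with the largest share of their length in such a stretch (95.8 to 100%) are shown for the kind of DNA that was listed each time, and the next, at Irf4, had 92.6% there. Every CpG is in capitals, and each line reads 5′ to 3′ on the strand of its gene.
Kif26b (chr1:178528912-178529073, plus strand): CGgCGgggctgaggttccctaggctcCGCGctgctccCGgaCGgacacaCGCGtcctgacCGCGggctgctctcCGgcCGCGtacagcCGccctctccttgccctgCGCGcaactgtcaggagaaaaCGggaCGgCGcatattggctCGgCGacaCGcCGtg
Rasgef1c (chr11:49901600-49901763, plus strand): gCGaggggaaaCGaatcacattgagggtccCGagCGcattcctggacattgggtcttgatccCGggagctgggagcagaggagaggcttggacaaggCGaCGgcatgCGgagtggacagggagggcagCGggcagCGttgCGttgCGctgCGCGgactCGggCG
Sox8 (chr17:25570687-25570867, minus strand): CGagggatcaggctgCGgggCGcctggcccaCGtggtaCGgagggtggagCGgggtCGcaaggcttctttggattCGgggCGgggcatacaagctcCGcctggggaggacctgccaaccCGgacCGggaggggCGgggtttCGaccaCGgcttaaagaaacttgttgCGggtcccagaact
Ctxn2 (chr2:125136448-125136618, plus strand): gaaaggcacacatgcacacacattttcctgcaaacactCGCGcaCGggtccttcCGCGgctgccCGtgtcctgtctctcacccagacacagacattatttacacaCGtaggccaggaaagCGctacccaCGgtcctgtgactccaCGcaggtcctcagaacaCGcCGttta
Itga2 (chr13:114932155-114932308, minus strand): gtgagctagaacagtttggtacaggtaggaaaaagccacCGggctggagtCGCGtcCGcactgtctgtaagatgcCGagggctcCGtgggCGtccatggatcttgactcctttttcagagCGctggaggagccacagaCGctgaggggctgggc
Sema4a (chr3:88458885-88459046, minus strand): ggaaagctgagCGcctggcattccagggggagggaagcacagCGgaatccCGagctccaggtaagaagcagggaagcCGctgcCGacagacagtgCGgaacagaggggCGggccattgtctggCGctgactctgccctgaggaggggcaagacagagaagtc
Rgs4 (chr1:169747692-169747851, minus strand): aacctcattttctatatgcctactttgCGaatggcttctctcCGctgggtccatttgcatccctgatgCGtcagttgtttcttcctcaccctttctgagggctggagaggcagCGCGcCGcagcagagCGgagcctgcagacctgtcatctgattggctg
These runs differ in CpG content. The Kif26b stretch, before a gene of the kinesin family, held 23 CpG in 162 bases, and its ratio of observed to expected CpG was 1.13. Those of Rasgef1c, an exchange factor for Ras-family GTPases, and Sox8, a transcription factor of neural crest and testis, held 16 each in 164 and 181 bases. Ctxn2, a small membrane protein of neurons, had 12 in 171 bases. Itga2, the alpha 2 collagen receptor subunit, had 9 in 154 bases, and Sema4a, a semaphorin, had 8 in 162. Rgs4, an inhibitor of G-protein signalling, had the fewest of the set with 7 in 160 bases. Across the 25 stretches of at least 60 bases that could be read before a start, the median was 8.84 CpG per 100 bases, with a range of 4 to 14.2.

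Within a time, the peaks of both hairpins nearly always sat on the same bases. Both hairpins gave identical coordinates in 234 regions at 24 h and in 235 at 0 h, and 234 regions (98.3%) were identical between hairpins at both times. Among the other merged regions that held both hairpins, coordinates were identical in 457 of 507 (90.1%) at 24 h and in 723 of 968 (74.7%) at 0 h. The sources used here do not say whether the lists of a time were called separately or against a shared control library, and the part of either in these identities was not tested. The exceptions were at Chst11, a chondroitin sulfotransferase gene, at Slitrk5, a neuronal adhesion gene, at the tRNA gene n-TMcat10 and at the predicted gene Gm30081. Here and below, a region is named by a gene that holds it or lies within 10 kb, and that of Chst11 was centred 3388 bp outside the gene. At Slitrk5 the peaks of hairpins 133 and 14 began at bases 111675783 and 111675761 of chromosome 14 at 24 h, and at 111675778 and 111675788 at 0 h. No library there shared a start with another.

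Between the times, the peak mostly moved by some bases. The start at 24 h lay a median of 10 bp from the start at 0 h with either hairpin, with a range of 0 to 132 bp. It was at a higher coordinate in 118 regions, at a lower one in 113 and equal in 7, counted with hairpin 133. The shift was at most 10 bp in 126 regions (52.9%), over 50 bp in 18 and over 100 bp in 5. The 7 with all 4 peaks at the same bases were at Vpreb3 (a gene of pre-B cells), Ttll6 (a tubulin polyglutamylase), Cbx2 (a Polycomb subunit), Dio2 (a thyroid hormone deiodinase), Susd3 (a membrane protein), Nid2 (a basement membrane protein) and Adm (the vasodilator peptide adrenomedullin). Those of Vpreb3, Ttll6 and Nid2 were centred 1177, 9425 and 320 bp outside the gene. The largest shifts were at Rhoc, a small GTPase, Ccnd1, cyclin D1, and Zfp119b, a zinc finger gene whose region was centred 6158 bp outside it. Their 24 h peaks began 132, 127 and 126 bp to the left of the 0 h peaks. At Ccnd1 the peaks were chr7:144939572-144939722 at 24 h and chr7:144939699-144939849 at 0 h, with both hairpins. These are also the regions just inside the rule, since their 4 peaks had 19, 24 and 25 bases in common, followed by the predicted gene Gm20467 with 36, Arhgap27 with 47 and Dmtn with 55. Over all 238 regions the common stretch had a median of 141 bp and the merged region a median width of 161 bp, with a range of 151 to 283 bp.

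**Figure D1:**
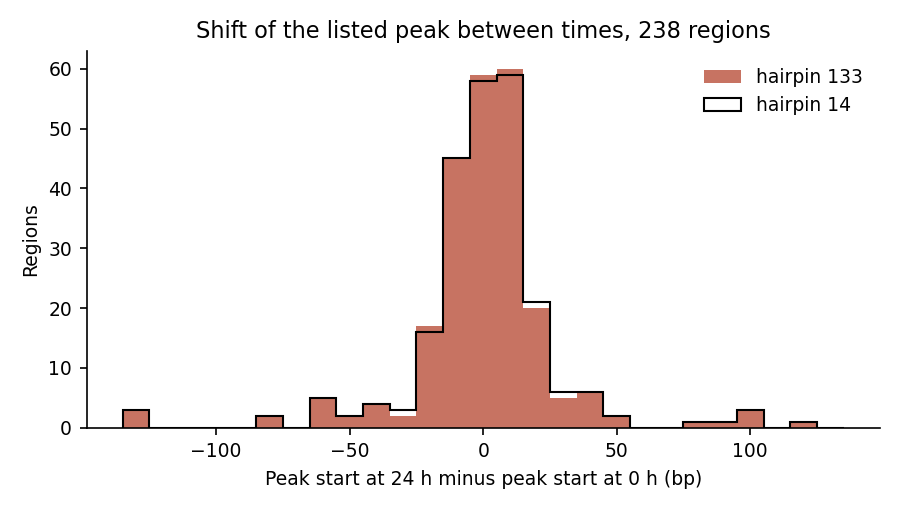
Number of regions (vertical axis) by the start of the 24 h peak minus the start of the 0 h peak in bp (horizontal axis), for hairpin 133 (filled) and hairpin 14 (line), over the 238 regions listed in all 4 libraries. Both hairpins give nearly the same distribution, centred on 0, and 126 regions lie within 10 bp of it with hairpin 133.

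Just outside the rule stood regions of 3 lists with a peak of the fourth list close by. At Fam131c a peak of the missing list was 35 bp away, at Thpo 66 bp, at Pax3 75 bp and at Gpr37 79 bp. It was 64 bp away at Cpm and 76 bp at Lhx1, but there it belonged to the neighbouring region listed in all 4 libraries. Thpo encodes thrombopoietin, the growth factor of megakaryocytes. A close peak of the missing list was rare. It lay within 1 kb of 23 of the 304 regions of 3 lists, including cases where it belonged to a region in all 4 lists. The median distance over the 304 regions was 90.65 kb. The missing list was hairpin 14 at 24 h in 85 of them, hairpin 133 at 24 h in 74, hairpin 133 at 0 h in 78 and hairpin 14 at 0 h in 67.

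Regions listed in all 4 libraries lay close to the ends of genes far more often than the other merged regions. A protein-coding gene end, which is the first or last base of the annotated gene, was within 1 kb of 107 of 237 placed regions (45.1%, exact binomial 95% interval 38.7 to 51.7%), against 1223 of 9843 other regions (12.4%, 11.8 to 13.1%). The difference was 32.7 percentage points with an odds ratio of 5.80 (two-sided Fisher's exact test with Benjamini-Hochberg adjustment over 4 tests, adjusted p = 1.106e-33). These tests compare regions within the 4 lists and not conditions. Of the 107, 21 were within 100 bp of the end. Gene starts, which the promoter table gives for 17492 genes, showed the same. A start was within 1 kb of 88 of 236 regions (37.3%), against 908 of 9537 others (9.52%), with an odds ratio of 5.65 (Fisher's exact test, adjusted p = 4.017e-29). Of the 88, 60 lay downstream of the start and 28 upstream. The upstream share was 31.8% for the regions in all 4 lists and 32.4% for the others (Fisher's exact test, p = 1), a difference of -0.56 points. The median distance to the nearest start in the table was 4212 bp, against 36506 bp for the others.

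The share near a gene end climbed with the number of lists, from 10.2% in 1 list through 19.6% in 2 and 33.2% in 3 to 45.1% in 4. The share near a start was 7.59%, 16.1%, 26.4% and 37.3% in the same order. Regions far from genes went the other way. Of the regions in all 4 lists, 6 (2.53%) lay more than 10 kb from any annotated gene, against 16.4% of the others, a difference of -13.9 points (Fisher's exact test, adjusted p = 1.556e-11). Protein-coding gene bodies held 156 regions (65.8%), against 58.9% of the others, a difference of 6.91 points (Fisher's exact test, adjusted p = 0.03255). That smaller difference did not pass against regions of 3 lists alone (6.61 points, Fisher's exact test, adjusted p = 0.1291), and it was 15 points with 1 region per gene. Promoters are richer in CpG than most of the genome and the assay selects such DNA, and the part of CpG content in these differences was not tested.

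**Figure D2:**
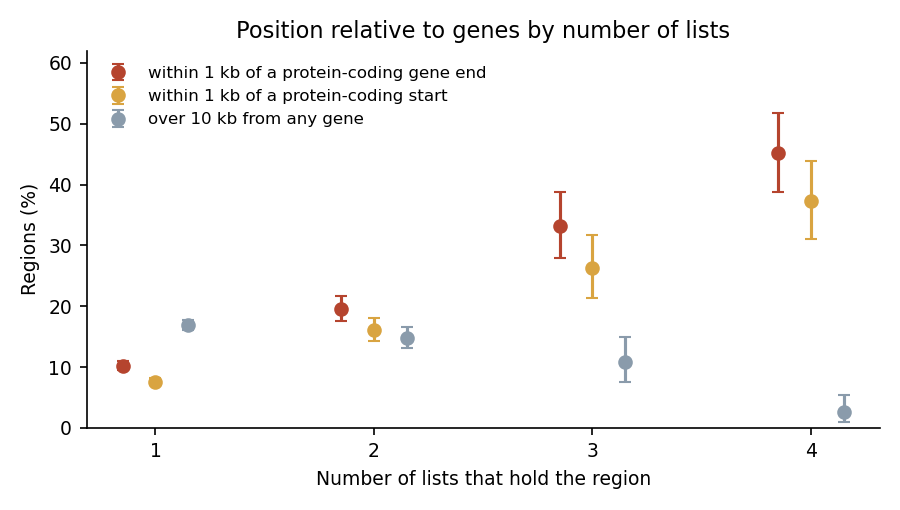
Share of merged regions in percent (vertical axis) by the number of lists that hold them (horizontal axis), with exact binomial 95% intervals as bars. The shares within 1 kb of a protein-coding gene end or start are highest in 4 lists, at 45.1% and 37.3%, and the share over 10 kb from any gene is lowest there, at 2.53%.

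**Figure D3:**
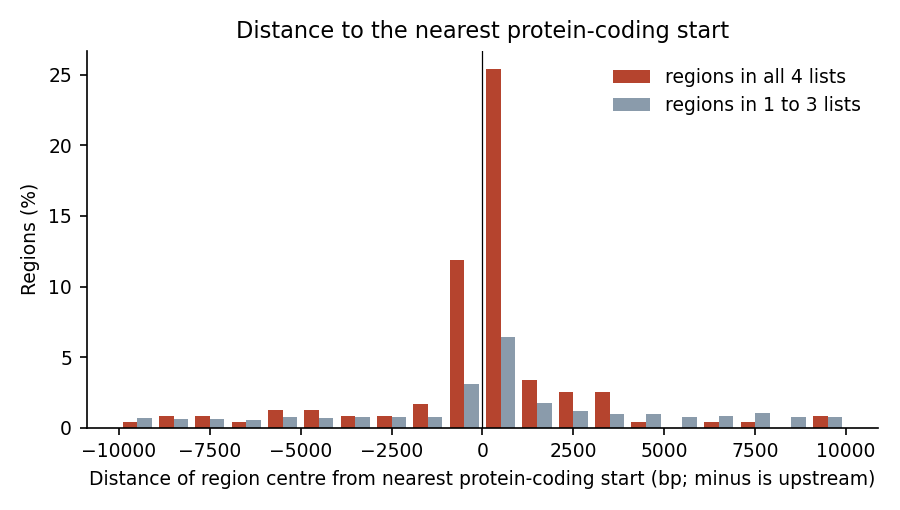
Share of regions in percent (vertical axis) by the distance of the region centre from the nearest protein-coding start in bp, upstream being negative (horizontal axis, 1000 bp bins), for regions in all 4 lists (red) and in 1 to 3 lists (grey). Both sets peak in the 1000 bp downstream of the start, and the regions in all 4 lists stand higher on both sides of it.

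Each region was assigned to 1 gene where it had one within 10 kb, which gave 222 genes for 231 regions, 202 of them protein-coding. In what follows, genes are grouped by the role of their product, and that grouping was drawn up after the regions were known. Because every peak in these regions was 151 bp wide, the merged interval runs from the first base of the earlier peak to the last base of the later one. Of these genes, 7 were assigned more than 1 region. At 4 of them, 2 regions flanked or followed the start within 1 kb. Kif26b had regions at chr1:178528912-178529073 and chr1:178529676-178529827, centred 132 bp upstream and 627 bp downstream of its start, with a region of 3 lists between them at chr1:178529156-178529307. Cpm, a carboxypeptidase of the cell surface, had chr10:117629219-117629372 and chr10:117629476-117629632, 204 bp upstream and 54 bp downstream, with another region of 3 lists 229 bp farther on that hairpin 14 lacked at 24 h. Fgf10, a growth factor of limb and lung buds, had chr13:118715105-118715257 and chr13:118715558-118715711, 482 and 936 bp downstream. Susd3 had chr13:49247705-49247855 and chr13:49248038-49248189, 514 and 180 bp downstream. At each of these 4 starts, the peaks of a region began at most 11 bp apart in the 4 libraries.

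The other 3 genes had regions far apart. En1, the engrailed homeobox gene of the midbrain and limb, had chr1:120604965-120605128 in its body and chr1:120613541-120613707, centred 5633 bp beyond it. Lgr5, a receptor for R-spondins that marks intestinal stem cells, had chr10:115471107-115471258 inside the gene and chr10:115587707-115587900, centred 24 bp outside its higher-coordinate limit. The promoter table gives no start for Lgr5, so it does not say whether that limit is the start. Pcdh15, a protocadherin of hair-cell tip links, had 4 over its 1553.6 kb body, at chr10:73821868-73822032, chr10:74231733-74231889, chr10:74416081-74416236 and chr10:74626657-74626814. The first was centred 83 bp downstream of a start in the table and the others lay 409944, 594292 and 405817 bp from the nearest one.

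Some of the regions had close neighbours. Another merged region lay within 1 kb of 58 of them (24.4%), against 585 (5.94%) of the others, a description without a test. Lhx1, Gjd3, Cbx2, Rhoc and Efs each had a neighbour listed 3 times. At Hmx2, Wt1, Itga2 and Nlrp6 a neighbour was listed with both hairpins at 24 h alone, and at Lhx2, Rnd3, Megf11, Mmp15 and Prkg1 one was listed with both hairpins at 0 h alone. These genes were picked after their neighbours had been seen.

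Homeobox and paired-type transcription factor genes outside the Hox clusters, which specify organs and neuron types in the embryo, were assigned 19 of these regions. Of 195 such genes, 20 (10.3%) had a region in the body or within 10 kb, beside 281 of 21887 protein-coding genes (1.28%). By regions in 1 to 3 lists the same class was touched at 51.8% of its members, beside 25.5% of all protein-coding genes. Among the members were 4 LIM or goosecoid-type genes with the region at the start or in the body. Lhx1, needed for head and kidney, had chr11:84525383-84525544 centred 70 bp from its start, and Lhx2, a factor of forebrain and hair follicle, had chr2:38351823-38351977, 592 bp downstream of a start. Lhx8, a factor of forebrain cholinergic neurons, had chr3:154329667-154329825, 814 bp downstream, and Gsc2 had chr16:17914913-17915073, 34 bp downstream. Onecut1, a factor of liver and pancreas, had chr9:74868690-74868847 within the gene. Hmx2, an inner ear factor, had chr7:131555498-131555649, which lay 9471 bp from its neighbour Hmx3.

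In other homeobox and paired genes the region lay outside the gene. Of the 19 regions of this class, 9 were 2 to 10 kb away, among them Pax3 (chr1:78201649-78201807) and Pax2 (chr19:44741236-44741388), factors of neural crest and kidney. Six3 (chr17:85607789-85607944), Irx2 (chr13:72639721-72639903), Meis2 (chr2:115855125-115855283) and Barhl2 (chr5:106465816-106465967) also stood at such distances, and so did the second region of En1. Otx1, a forebrain factor, was 6887 bp from a region inside Ehbp1. Of the 19, 6 were within 1 kb of a protein-coding end, and over the 4 lists of transcription factors together it was 9 of 31 (29.0%), against 98 of 206 (47.6%) of the other regions in all 4 libraries. Both shares are descriptions without a test.

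One locus of chromosome 12 held 4 of the regions in 170.5 kb, the most of any run of regions less than 100 kb apart. They were at chr12:56521079-56521231 in the noncoding gene Sfta3-ps, chr12:56529045-56529210, 2807 bp from Nkx2-1, chr12:56611847-56612004 in Nkx2-9 and chr12:56691457-56691614, 157 bp from Pax9. Nkx2-1 directs thyroid, lung and forebrain development, and Pax9 tooth and thymus development. The 24 h peaks at Nkx2-1 and Pax9 began 15 and 7 bp to the right of the 0 h peaks, and those at Sfta3-ps and Nkx2-9 began 2 and 7 bp to the left. This locus was looked for after the regions were known.

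The Hox clusters, which pattern the body axis, were touched by 3 regions. They were chr6:52221503-52221670 between Hoxa7 and Hoxa9, chr15:102981684-102981838 in the annotated Hoxc9 gene and chr15:103005517-103005681 in the annotated Hoxc6 gene. These 3 regions reached 9 of 39 Hox genes (23.1%) within 10 kb, but 2 by the gene body alone. Hoxa9 and Hoxa7 are also regulators of blood progenitors. Regions in 1 to 3 lists touched 71.8% of the Hox genes.

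**Figure D4:**
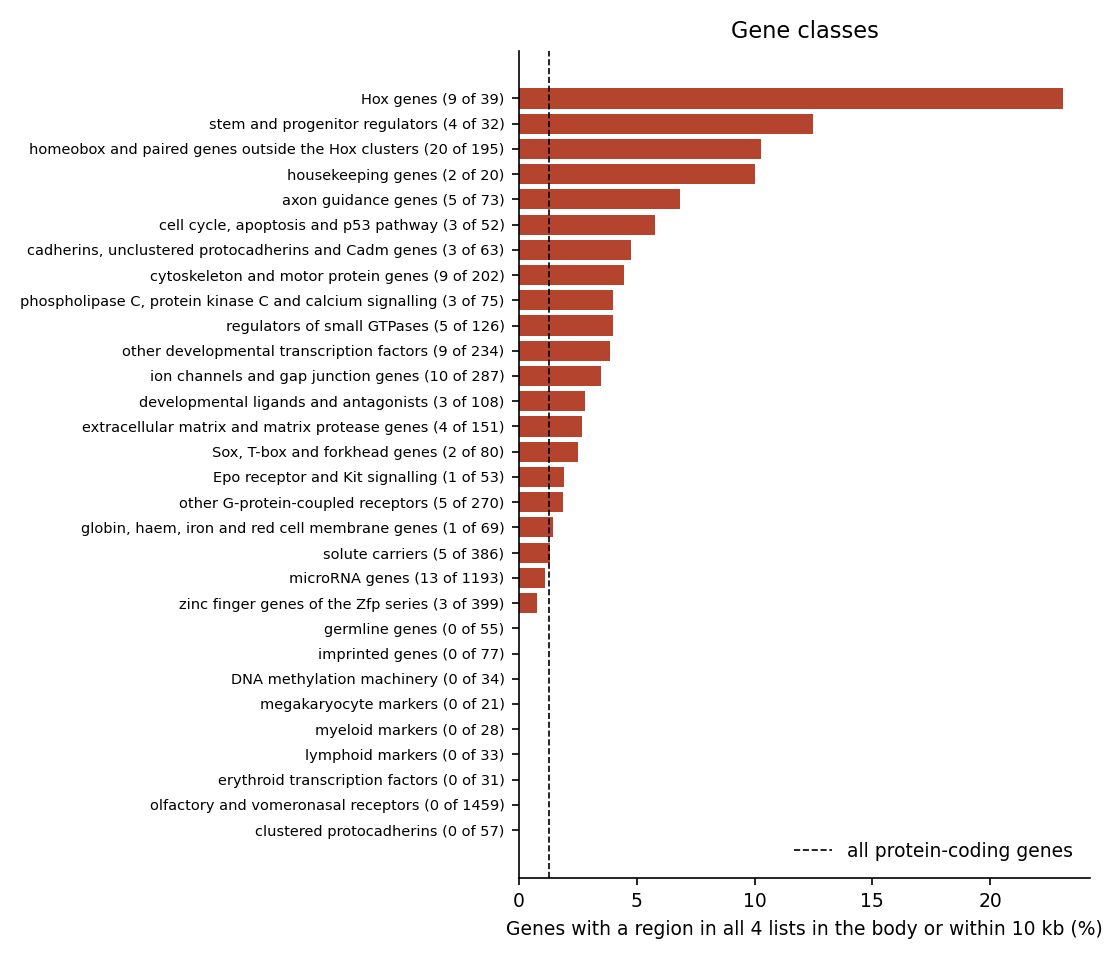
Share of the genes of each class with a region listed in all 4 libraries in the gene body or within 10 kb, in percent (horizontal axis), with the touched and total members in parentheses. The broken line marks the 1.28% of all protein-coding genes. Hox and other homeobox and paired genes stand at 23.1% and 10.3%, and 9 classes stand at 0.

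Other transcription and chromatin regulators took 24 regions. Of the developmental factors outside the homeobox and Sox groups, 9 of 234 (3.85%) were touched. They were Prdm12 (chr2:31635653-31635810), needed for pain neurons, Insm1 (chr2:146223069-146223232), a neuroendocrine zinc finger factor, Tfap2a (chr13:40705235-40705393), a neural crest factor, Sp6 (chr11:97018398-97018555), a tooth and skin factor, Sp9 (chr2:73263765-73263953), a factor of limb and interneurons, Dmrt3 (chr19:25609209-25609367), a factor of spinal interneurons, and the ETS-family gene Etv3 (chr3:87529735-87529892). The remaining pair, Dmrt1 and Gli1, stood within 10 kb of the regions at Dmrt3 and Arhgap9. The regions at Tfap2a, Sp9 and Dmrt3 were centred 8488, 8067 and 958 bp outside the gene. By the gene body alone, 4 of the 234 were touched. Regions in 1 to 3 lists touched 45.3% of the 234, beside 25.5% of all protein-coding genes. Of 80 Sox, T-box and forkhead genes, Sox8 (chr17:25570679-25570867) and Tbx20 (chr9:24770351-24770522), a heart factor, were touched (2.5%). Wt1 (chr2:105132902-105133059), a factor of kidney and gonad, Irf4 (chr13:30749083-30749244), a factor of lymphocytes, and Jun (chr4:95049959-95050125), a subunit of AP-1, each had 1. Cbx2 (chr11:119023118-119023268) and L3mbtl1 (chr2:162943417-162943583) encode chromatin readers, and H1f1 (chr13:23763799-23763951) a linker histone.

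Secreted signals and their regulators had 9 regions, 6 of them within 1 kb of a gene end, beside 107 of all 237 placed regions (45.1%), without a test. The list of developmental ligands and antagonists had 3 of 108 touched (2.78%), which were Fgf10, Wnt9b (chr11:103749325-103749487), a Wnt ligand of the kidney, and Dhh (chr15:98898002-98898158), the hedgehog ligand of testis and nerve sheath. Bdnf (chr2:109694079-109694255), a neurotrophin, had its region 242 bp upstream of a start. Adm (chr7:110628815-110628965) had it 1233 bp downstream, and the natriuretic peptide receptor gene Npr1 (chr3:90465409-90465569) had it 377 bp downstream. Among other receptors were Adora2a (chr10:75317200-75317369), for adenosine, Hcrtr1 (chr4:130139070-130139235), for orexin, Lpar6 (chr14:73238126-73238278), for lysophosphatidic acid, and Gpr161 (chr1:165281662-165281815), a ciliary brake on hedgehog signalling. With Lgr5 they made 5 of 270 non-olfactory G-protein-coupled receptor genes (1.85%), close to the 1.28% of all genes.

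Genes of axon guidance were touched at 5 of 73 members (6.85%), beside 1.28% of all protein-coding genes, and at 2 of them in the gene body. Regions in 1 to 3 lists touched 61.6% of them. They were Epha4 (chr1:77515264-77515427), an ephrin receptor, Efna2 (chr10:80190548-80190704), an ephrin, Plxna2 (chr1:194620367-194620525), a plexin, Sema4a (chr3:88458883-88459046) and Nrp1 (chr8:128357320-128357479), a co-receptor of semaphorins and VEGF. The region at Epha4 was centred 258 bp upstream of its start and that at Plxna2 617 bp downstream. Among cadherins and their relatives, Cdh22 (chr2:165233415-165233587) and Clstn1 (chr4:149634736-149634891) joined Pcdh15, which made 3 of 63 (4.76%), and 0 of 57 clustered protocadherins were touched. Other surface genes with a region were Itga2 and Itgb5 (chr16:33829962-33830135), integrin subunits, Nrcam (chr12:44329250-44329422), a neural adhesion molecule, Mcam (chr9:44134629-44134796), an endothelial adhesion molecule, and Cd9 (chr6:125473690-125473841), a tetraspanin of platelets and other cells. Extracellular matrix genes had 4 of 151 touched (2.65%), among them the metalloproteinases Mmp11 (chr10:75932232-75932383), Mmp15 (chr8:95352207-95352394) and Mmp28 (chr11:83462800-83462953) and the laminin chain Lamb1 (chr12:31266101-31266262). Centres at the metalloproteinases were 194, 5 and 163 bp from a gene end.

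Channels and transporters had 13 regions, 8 of them within 1 kb of a gene end, beside 107 of all 237 placed regions (45.1%), without a test. The list of ion channels and gap junctions had 10 of 287 touched (3.48%). Trpm2 (chr10:77969751-77969906), a calcium-permeable channel, had its region 43 bp from a start, and Kcnh5 (chr12:75176453-75176610), a potassium channel, 800 bp downstream. Cacnb4 (chr2:52675580-52675788) and Cacng4 (chr11:107793465-107793623) encode calcium channel subunits, Chrne (chr11:70615378-70615534) a muscle acetylcholine receptor subunit, Gjd3 (chr11:98982435-98982587) a connexin, and Kcne1 (chr16:92339883-92340049) a potassium channel subunit. Solute carriers were touched at 5 of 386 members (1.30%), including Slc16a9 (chr10:70244957-70245114) and Slc5a4b (chr10:76100276-76100436), near the share of all genes.

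Regulators and members of the small GTPase families had 16 regions. Of the listed regulators of small GTPases, 5 of 126 (3.97%) were touched, among them Arhgap8 (chr15:84719733-84719887), Arhgap9 (chr10:127326323-127326486), Arhgap27 (chr11:103360670-103360924) and Plekhg6 (chr6:125380299-125380461). The GTPases themselves included Rhoc (chr3:104788628-104788910), Rnd3 (chr2:51147583-51147760), Gem (chr4:11704365-11704519) and Rragd (chr4:32983092-32983252), the last a part of amino acid sensing by mTORC1. Chn2 (chr6:54039530-54039761), a Rac regulator that binds diacylglycerol, a product of phospholipase C, had its region 286 bp upstream of a start. Kinase and scaffold genes had 15 regions, such as Fgr (chr4:132973971-132974152), a Src-family kinase of myeloid cells, 33 bp upstream of its start, Matk (chr10:81257502-81257687), a kinase that restrains Src kinases in blood cells, and Map3k5 (chr10:19933650-19933811), a stress kinase.

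Enzyme genes had 25 regions at 24 genes, and 17 of these regions were within 1 kb of a gene end. Over all 237 placed regions it was 107 (45.1%), and the group was drawn up after the regions were known, so neither count carries a test. Car4 (chr11:84957650-84957807) is a carbonic anhydrase of the cell surface, Hs3st3a1 (chr11:64435127-64435360) and Chst11 (chr10:83199205-83199379) are sulfotransferases, and Fah (chr7:84606044-84606275) acts last in tyrosine breakdown. The regions at Car4 and Hs3st3a1 were centred 25 and 88 bp upstream of their starts, and that at Fah 218 bp upstream. Entpd3 (chr9:120539748-120539935), an ectonucleotidase, had its centre 24 bp downstream. Cytoskeletal genes took 17 regions, with 9 of 202 list members touched (4.46%), among them Actn1 (chr12:80260242-80260402), an alpha-actinin, Myh11 (chr16:14292324-14292481), smooth muscle myosin, Syne2 (chr12:75846176-75846333), a nuclear envelope linker, and Krt90 (chr15:101553195-101553354), a keratin.

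In the 4 lists of the erythroid programme and of Epo and phospholipase C signalling, 5 genes together were touched. The share of each list is read beside the 1.28% of all protein-coding genes, and counts this small set no list apart from it. None of 31 erythroid transcription factor genes had a region in all 4 lists within 10 kb, although regions in 1 to 3 lists touched 41.9% of them. Of 69 globin, haem, iron and red cell membrane genes 1 was touched (1.45%), Dmtn, which encodes dematin, an actin-binding protein of the red cell membrane skeleton. Its peaks were chr14:70618332-70618482 at 24 h and chr14:70618236-70618386 at 0 h with both hairpins, 96 bp apart at their starts. Of 53 Epo receptor and Kit signalling genes, Cbl, a ubiquitin ligase for activated receptors, was 8180 bp from the region in Mcam (1.89%). Of 75 genes of the phospholipase C and calcium pathway, 3 (4.0%) were touched. Ryr1, a calcium release channel, held chr7:29019599-29019772, whereas Orai3, a calcium entry channel, and Prkch, a protein kinase C, were 1926 and 6155 bp from regions assigned to Fbxl19 and a predicted gene.

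Of the listed markers of other blood lineages, 0 of 33 lymphoid, 0 of 28 myeloid and 0 of 21 megakaryocyte genes were touched, beside 1.28% of all protein-coding genes. At that share, lists this short would often be at 0, so these counts show no absence. Regions were assigned to Irf4, Vpreb3 and Fgr, blood-cell genes outside these lists. Stem and progenitor regulators had 4 of 32 touched, 3 of them by the single region at Hoxa9 and the other by chr11:88468003-88468189 in Msi2, an RNA-binding protein of blood stem cells. In the cell cycle and p53 list 3 of 52 were touched (5.77%). Cdkn2a, which encodes p16 and the p53 activator Arf, held chr4:89281960-89282116, 154 bp downstream of a start, Ccnd1 held the region given above, and Rb1, the retinoblastoma gene, overlapped the region assigned to Lpar6. Beside the same 1.28%, imprinted genes were at 0 of 77, germline genes at 0 of 55 and DNA methylation machinery at 0 of 34. These lists too are short enough that a count of 0 shows no absence. Olfactory and vomeronasal receptors were at 0 of 1459, beside the same 1.28%. Regions in 1 to 3 lists touched 1.78% of that class, against 25.5% of all protein-coding genes. A low share there is thus not particular to the regions in all 4 lists. Zfp-series zinc finger genes were at 3 of 399 (0.752%), and 2 of 20 housekeeping genes, Gapdh and Tubb5, stood within 10 kb of regions in Iffo1 and Flot1.

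MicroRNA genes were touched at 13 of 1193 (1.09%), near the 1.28% of all protein-coding genes, and at 1 of them in the gene body. Some of the 13 shared a region, such as Mir9-1 and Mir3093. Regions in 1 to 3 lists touched 14.5% of the 1193. The mature sequences of 5 of the 13 are shown, 3 well-studied ones close to a region and 2 that share a seed. These 5 were picked after their distances had been seen. The seed, bases 2 to 8, is in capitals.
mmu-miR-9-5p: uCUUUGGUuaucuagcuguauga
mmu-miR-193a-3p: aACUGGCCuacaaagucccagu
mmu-miR-203-3p: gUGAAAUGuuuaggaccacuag
mmu-miR-196a-5p: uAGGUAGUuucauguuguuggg
mmu-miR-196b-5p: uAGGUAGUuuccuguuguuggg
Mir9-1, the gene of a neuronal microRNA (chr3:88215613-88215635 for the 5p arm, plus strand), began on the last base of the region chr3:88215437-88215598. Mir193a was 231 bp from chr11:79711544-79711738, the gene to which that region was assigned. Mir3093 and Mir1932 were also near, 180 and 309 bp from a region. Mir203, the gene of an epithelial microRNA, was 353 bp from chr12:112130366-112130527, which was assigned to Aspg. Mir196a-2 and Mir196b share the seed AGGUAGU and stood 8250 and 8411 bp from the regions at Hoxc9 and Hoxa9. Predicted and noncoding genes altogether were assigned 26 of the 238 regions, some of them centred outside the gene. Of the 26, 3 were within 1 kb of a protein-coding end, beside 107 of all 237 placed regions. Of 14316 long noncoding and predicted genes 101 (0.706%) were touched, beside the same 1.28% of protein-coding genes.

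Promoter windows, from 250 bases before to 50 after a start, were overlapped by 37 of the regions at 36 genes. The windows were rich in CpG. Their CpG count had a median of 20.5 with a range of 3 to 39, against 13 for all 21263 windows in the table, 17 for windows touched by a region of 1 list, 19 for 2 lists and 22 for 3 lists. The highest counts were at Chn2 with 39, Kif26b with 38, and Cpm and Rasgef1c with 37 each, and the lowest at Stra6l with 3 and Pcdh15 with 8. The ratio of observed to expected CpG had a median of 0.682, against 0.567 for all windows. The GC content was 63.8%, against 56.3%. The motif GGGCGG, the GC box bound by Sp1-type factors, stood on either strand in 23 of the 36 windows (63.9%), against 46.2% of all windows. The motif AGATAA, of the kind bound by the erythroid factor Gata1, was on neither strand of any of the 36, against 9.65% of all windows. Windows touched by regions of 1, 2 and 3 lists held GGGCGG in 63.3%, 73.0% and 67.7%, in that order. They held AGATAA in 5.31%, 1.12% and 0%, the last over 31 windows. A high share of GGGCGG and a lack of AGATAA were thus not particular to the 36 windows. A match here is a stretch of letters and not a binding site.

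Chromosomes 10, 11 and 12 held 35, 24 and 22 of the 237 placed regions. Those are 14.8%, 10.1% and 9.28%, against 9.83%, 5.99% and 6.29% of the other merged regions. Chromosome 5 held 6 (2.53%), against 6.77%, chromosome 18 held 1 (0.422%), against 3.11%, and chromosome X none, against 1.62%, where a count of 0 allows a share of up to 1.27%. By Fisher's exact test none of 20 chromosomes passed the adjusted threshold, and 4 had an unadjusted p under 0.05 (chromosomes 5, 10, 11 and 18), with a smallest adjusted p of 0.07766. With 1 region per gene, none passed and 6 had an unadjusted p under 0.05.

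**Figure D5:**
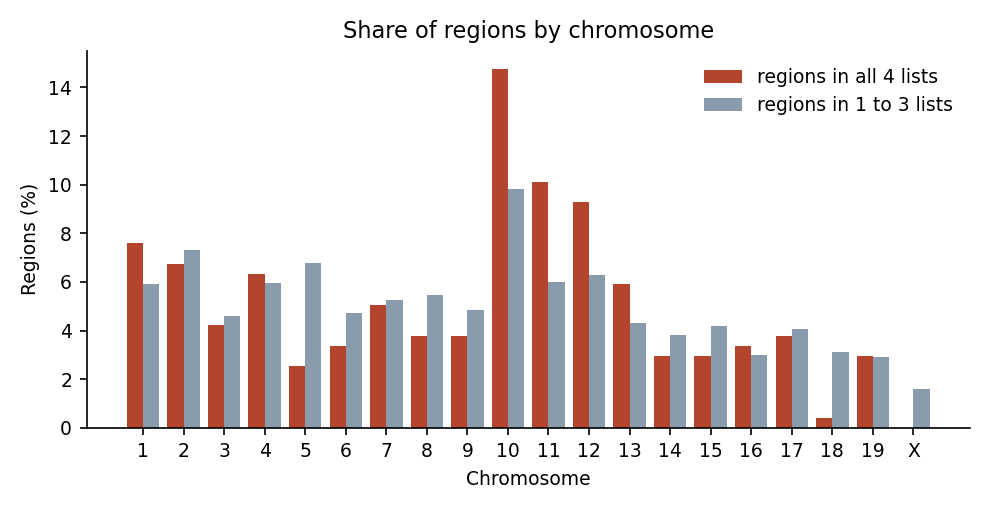
Share of regions in percent (vertical axis) by chromosome (horizontal axis) for the 237 placed regions in all 4 lists (red) and the other merged regions (grey). Chromosome 10 holds 14.8% of the red set and 9.83% of the grey set, and chromosome X holds none of the red set.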

How the data were processed

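BWA, Picard, HOMER and SAMtools were used and mm10 was the build, per the submitters' processing notes, which give neither versions nor roles. What the authors deposited are positions (chromosome, start, end), without score, count or strand. Input, threshold and direction against the control hairpin are not given in the sources used here. Starts were read as 0-based and are printed 1-based.

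Genes came from RefSeq on GRCm38.p6, which shares coordinates with mm10. The tables give neither exons nor UTRs, and strand and starts only where a promoter sequence exists, which was so for no gene of chromosome 18. A region went to the protein-coding gene holding its centre (the shortest one), otherwise the nearest within 10 kb, otherwise another gene by the same rule. Genes so assigned, members of the 31 lists and Plcg1 could be named, and some of them are not reported here. A list member counted as touched with a region in its body or within 10 kb. Shares were compared by Fisher's exact test, two-sided, with Benjamini-Hochberg adjustment over 4 annotation tests and over 20 chromosomes, and have exact binomial 95% intervals that cover counting error only. Regions of a gene are not independent. Class shares, coordinates and promoter sequence were described without a test. The members, lists and tests were chosen with earlier results of these data known. The alternatives were other overlaps, distances, windows and comparison sets. Python 3.11.15, SciPy 1.17.1, NumPy 2.4.6 and matplotlib 3.10.9 were used, and the merging, annotation and tests were tested on simulated data.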

Additional observations from a re-analysis of the deposited data

How the results depend on the processing

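The number of regions listed in all 4 libraries was 238, and 227 with overlap of at least 50% of the width required, 246 and 254 with peaks up to 100 and 500 bp apart merged. Leaving out each library in turn gave 305 to 323 regions held by the other 3 lists. Leaving out peaks placed identically with both hairpins at a time left 3 regions, since such peaks make up nearly all of them by that setting's construction. The gene-end difference kept its direction and stayed past the threshold under all 10 alternatives (11.9 to 36.8 points), and so did the share far from genes under its 4 (-14.4 to -4.15 points). The gene-body difference was 6.61 points against regions of 3 lists and no longer passed (Fisher's exact test, adjusted p = 0.1291). Its cause was not tested. The members touched over all gene lists other than that of predicted genes were 113, but 58 by the gene body alone and 202 within 50 kb, since the window sets what counts. By the same windows Hox genes went to 2 and 18 of 39, and other homeobox and paired genes to 9 and 24 of 195. The promoter CpG difference was 7.5 against all windows and 3.5 against those of 1-list regions. No paired analysis was possible because each group is 1 library, so that 24 h and 0 h were set side by side within a hairpin as a description, with no test. Depth, and with it the chance that a region is missed in a library, is unknown.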
